A study of Mus musculus with 6 samples.

Results

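The genes described here are the collagens, the other proteins of the extracellular matrix and the enzymes that build or cut it. They were taken by gene symbol. The symbols cover collagen chains, collagen prolyl and lysyl hydroxylases, lysyl oxidases, the collagen chaperone Serpinh1 and TIMPs. They also cover genes named Mmp, Adam or Adamts, laminins, elastic-fibre proteins, matricellular proteins, proteoglycans and hyaluronan synthases. The rule found 84 genes among the 7340 that the deposited table lists, out of 196 protein-coding genes of the mouse annotation whose symbols it matches. The rest of those genes are not in the table and were not analysed. Expression was measured by RNA sequencing of 6 kidney samples from WT mice. In 3 samples, titled IRI, the kidney had undergone ischaemia-reperfusion injury, a loss of blood flow followed by its return. The other 3, titled IRI with MK8617, had the same injury and MK-8617, a drug that blocks the oxygen-sensing prolyl hydroxylases and so stabilises hypoxia-inducible factor (HIF). No uninjured sample was analysed, so each difference is relative to injury alone. The labels give no dose, route, age or time after injury, although the column names carry a 1d tag. Replicates 2 and 3 of the second group carry the treatment entries MK8618 and MK8619, and here their titles were followed. No label states whether each replicate was its own animal, so the p-values reflect only how far these samples vary, and that variation may be technical.

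The matrix around kidney tubules and vessels is built from fibrillar collagens in the interstitium and from a sheet of type IV collagen and laminin, the basement membrane, under each epithelium. Collagen chains are hydroxylated on proline and lysine and folded with the chaperone Serpinh1 (HSP47) in the endoplasmic reticulum, then trimmed, assembled and crosslinked by lysyl oxidases outside the cell. After injury, fibroblasts and myofibroblasts are the main source of fibrillar collagen, while metalloproteinases cut matrix proteins and TIMPs inhibit the metalloproteinases. The collagen prolyl 4-hydroxylases belong to the same family of oxygen- and 2-oxoglutarate-dependent enzymes as the HIF prolyl hydroxylases, and P4ha2 and Plod2 are known HIF target genes.

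Values are the authors' size-factor normalised reads per gene unless FPKM, a level per length, is named, and a log2 change is the mean of log2(value + 1) with MK-8617 minus that with IRI alone. A gene is said to have risen or fallen where the limma test on the whole table gave an adjusted p below 0.05. The libraries held 16835541 to 19508497 counted reads, of which the 84 genes took 0.685% to 0.822% with IRI and 0.569% to 0.716% with MK-8617. A count of 3 reads corresponds to 2.73 to 3.20 normalised reads, a floor that covers counting error only. The authors' own test gave every listed gene a p below 0.05, so genes with little change are largely absent. The shares of changed genes and the median log2 changes therefore describe this table.

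Matrix genes fell more often than they rose with MK-8617. Of the 82 members that passed the filter on low values, 41 fell (50%), 18 rose (22%) and 23 did not pass the threshold. Among all 6961 genes tested, 74.3% were called, 38.7% as lower and 35.7% as higher. The median log2 change was -0.76 over the members and -0.31 over all genes. The ranges of the 2 groups of libraries did not overlap for 69 of the 82 members, against 92.5% of all genes. The filter removed Col8a2, with 7.60, 12.8 and 11.5 normalised reads in the IRI libraries and 0, 3.20 and 4.30 with MK-8617, and Adam23, with 1.90, 3.60 and 5.80 and 10.2, 9.60 and 19.1. Of the 84 members, 65 have an adjusted p below 0.05 in the authors' deposited table, 46 lower and 19 higher, as do 77.1% of all listed genes. Each of the 59 members called here is among those 65 and moved the same way there. Both tests used the same 6 libraries, so this match is not independent support. These are bulk samples, in which fewer cells of a type and less RNA per cell cannot be told apart. The number of members that rose depended on single libraries: it was 11 without IRI replicate 1, 11 without IRI replicate 2, 8 without MK-8617 replicate 1, 10 without MK-8617 replicate 2 and 8 without MK-8617 replicate 3. In the same fits, in that order, 1822, 1982, 1510, 1791 and 1650 of all genes rose, against 2482 with all libraries, and 43, 39, 36, 37 and 39 members fell. With the trend of fold change on transcript length removed, 10 members rose and 54 fell, so that 15.6% of the calls were higher where the reported test gives 30.5%. Over all genes the same change moved that share from 48.0% to 40.6%.

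**Figure D1:**
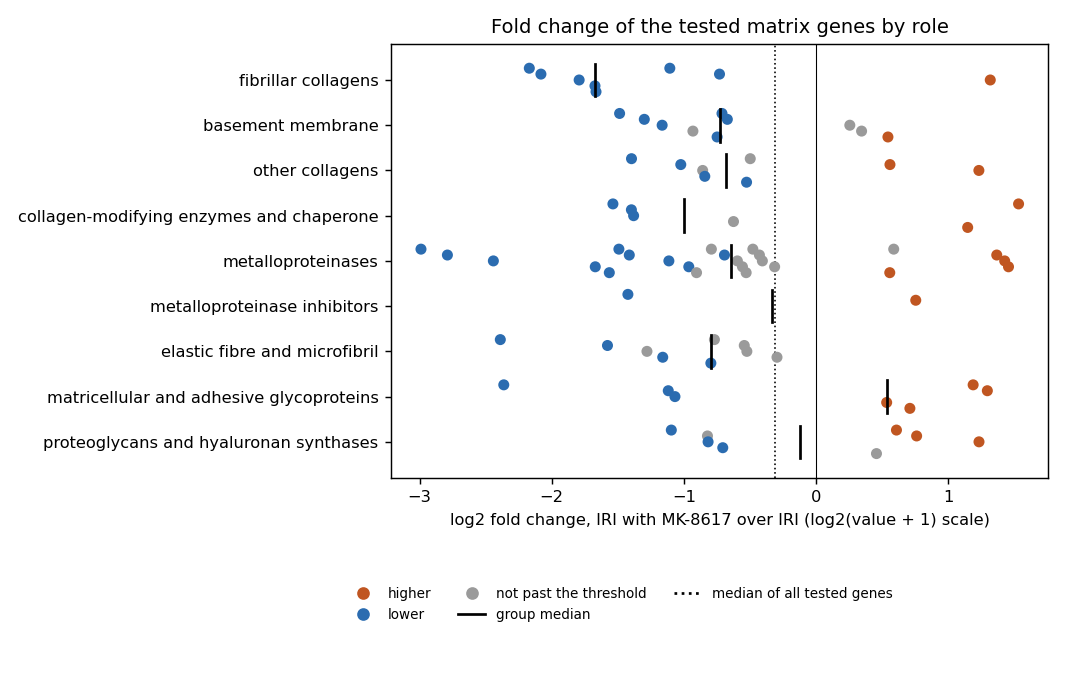
Log2 change of each tested matrix gene, IRI with MK-8617 over IRI, by role group. Each point is 1 gene, coloured by its call, the short black bars are group medians and the dotted line is the median of all tested genes (-0.31). The fibrillar collagens lie farthest to the left by their median (-1.67), and the matricellular proteins have a median above 0 (0.54).

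Fibrillar collagens, the chains that form the rope-like fibres of the interstitium, fell in 7 of the 8 listed cases, with a median log2 change of -1.67. That is 87.5%, against 38.7% of all genes tested. Col1a1, the alpha-1 chain of type I collagen (chr11:94936224-94953042, GRCm38), measured 3376, 6865 and 4364 normalised reads in the IRI libraries and 968, 1104 and 1037 with MK-8617. The lowest IRI library held more than any MK-8617 library, and IRI replicate 2 was well above the other two. Col1a1 fell by 2.17 on the log2 scale (SE 0.22, limma adjusted p = 0.000319), and its IRI mean was 4.70 times its MK-8617 mean. Col1a2, its partner chain, measured 4302, 8471 and 5833 with IRI and 1577, 1684 and 1922 with MK-8617. Col1a2 fell by 1.79 on the log2 scale (SE 0.22, limma adjusted p = 0.000663), again with no overlap and with IRI replicate 2 the highest. Col5a1, a chain of the type V collagen that nucleates type I fibres (chr2:27886425-28039514), measured 1465, 2169.6 and 1473 with IRI and 466, 506 and 610.4 with MK-8617. Col5a1 fell by 1.67 on the log2 scale (SE 0.17, limma adjusted p = 0.000331), and all 3 IRI libraries lay above all MK-8617 libraries. Another type V chain, Col5a3, fell by 1.11 (SE 0.17, limma adjusted p = 0.0018), at 426 to 528 reads with IRI and 182 to 265 with MK-8617.

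The naming rule took the 8 genes given with the set, up to 4 members per role group with the smallest adjusted p, and called members that moved against their group. Of the fibrillar chains outside that rule, which are given after their values were seen, Col3a1 showed the widest spread. Col3a1, the type III chain that is laid down with type I in healing tissue, measured 4279.9, 12072 and 8006 with IRI and 1592, 1599.8 and 2137 with MK-8617. Col3a1 fell by 2.08 on the log2 scale (SE 0.32, limma adjusted p = 0.0019). Col5a2 fell by 0.73 (SE 0.16, limma adjusted p = 0.00927). Col24a1, a low chain at 33.1 to 66.1 reads with IRI and 13.9 to 15.4 with MK-8617, fell by 1.66 (SE 0.35, limma adjusted p = 0.00794). Col27a1 was the exception among the fibrillar chains. It encodes a chain of a thin-fibril collagen best known from cartilage, and it measured 1782, 1603 and 1182 with IRI and 3924, 4898 and 2735 with MK-8617. Col27a1 rose by 1.32 on the log2 scale (SE 0.22, limma adjusted p = 0.00276), with every MK-8617 library above every IRI library. Summed over the 8 chains, the level per length was 98.6, 199 and 133 FPKM in the IRI libraries and 48.3, 55.1 and 50.6 with MK-8617. The IRI libraries were spread widely and the MK-8617 libraries lay close together, with no overlap.

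The fibroblast and myofibroblast markers that the table lists moved with the fibrillar collagens. Of a list of 12 such markers, 7 were in the table and all 7 fell, among them Acta2, the smooth muscle actin of myofibroblasts (5533, 4237 and 7884 with IRI, 940.5, 2072 and 1364 with MK-8617), and Vim, an intermediate filament of mesenchymal cells, which fell by 1.27. The 7 markers together held 724, 664 and 1036 CPM (counted reads scaled to the library total) in the IRI libraries and 202, 330.2 and 305 CPM with MK-8617. IRI replicate 2, the highest library in Col1a1, Col1a2 and Col3a1, was the lowest IRI library in this sum, most of which came from Acta2 and Vim. For 4 of the 7 markers, Thy1, Cdh11, Des and Gli1, IRI replicate 2 was the highest library. None of the 7 was at 0 in any library. Only genes with a p below 0.05 in the authors' test are listed. The other markers had no such p or were not tested there, and their values could not be read. Of all genes tested, 38.7% fell. The part of these markers in the collagen result was not tested.

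**Figure D2:**
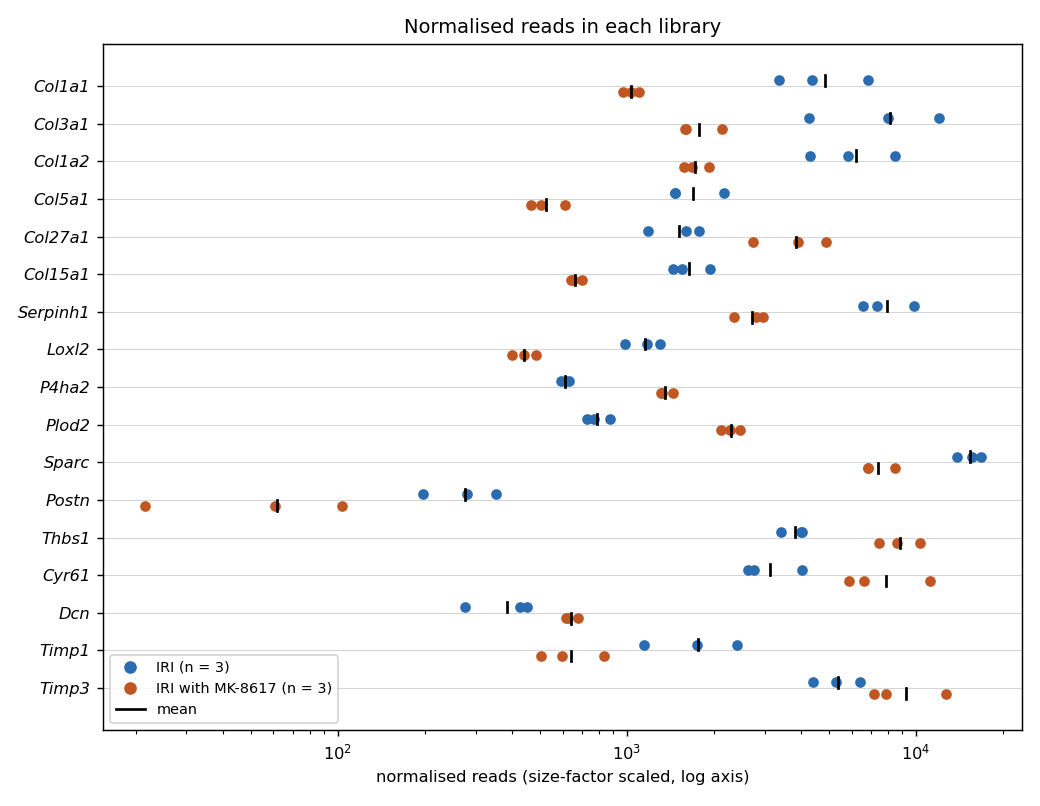
Normalised reads of 17 matrix genes in each library, on a log axis. Blue points are the 3 IRI libraries, orange points the 3 libraries with MK-8617, and black bars the means. The genes shown are a selection, and the 2 colours do not overlap for any of them. The same holds for 69 of the 82 tested members and 92.5% of all tested genes. The orange points lie to the right for Col27a1, P4ha2, Plod2, Thbs1, Cyr61, Dcn and Timp3.

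Collagen-modifying enzymes split between rises and falls. The hydroxylases P4ha2 and Plod2 rose, whereas the chaperone Serpinh1 and the lysyl oxidases Loxl2 and Loxl3 fell, and Loxl4 did not pass the threshold. P4ha2, the catalytic subunit of a collagen prolyl 4-hydroxylase (chr11:54100095-54131665, GRCm38), measured 616, 630.3 and 592 normalised reads with IRI and 1310.4, 1323 and 1449 with MK-8617. P4ha2 rose by 1.15 on the log2 scale (SE 0.09, limma adjusted p = 0.000124), and its MK-8617 mean was 2.22 times its IRI mean. Plod2, the lysyl hydroxylase that modifies the collagen telopeptides used in crosslinks (chr9:92542223-92608428), measured 729, 873 and 769.8 with IRI and 2284, 2121 and 2459.5 with MK-8617. Plod2 rose by 1.53 on the log2 scale (SE 0.11, limma adjusted p = 6.49e-05), the largest rise among the 82 tested members on this scale. For both hydroxylases the libraries of each group lay close together and far from those of the other group. Serpinh1, the chaperone that holds newly made procollagen helices (chr7:99345376-99353239), measured 7367, 9843 and 6574 with IRI and 2350.3, 2793 and 2969.9 with MK-8617. Serpinh1 fell by 1.54 on the log2 scale (SE 0.16, limma adjusted p = 0.000365), and the 2 groups of libraries did not overlap. Loxl2, a lysyl oxidase-like enzyme that crosslinks type IV and fibrillar collagen (chr14:69609068-69695834), measured 988, 1305 and 1176 with IRI and 401, 441 and 485 with MK-8617. Loxl2 fell by 1.38 on the log2 scale (SE 0.13, limma adjusted p = 0.000235), with every IRI library at more than 2 times every MK-8617 library. Loxl3, a related oxidase, fell by 1.40 (SE 0.22, limma adjusted p = 0.00236), and 11.6% of its exonic bases are shared with Htra2 on the other strand. Loxl4, another of the family, stood at a log2 change of -0.62 (SE 0.25, limma adjusted p = 0.0989).

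The 250 bases before the RefSeq start of 4 matrix genes, picked after their matches were seen, are given so that genes that rose can be read beside genes that fell. Capitals mark each ACGTG or GCGTG on either strand (CACGT or CACGC as printed), the core letters of a HIF response element. Sequences are RefSeq's on GRCm38.p6, 5′ to 3′ along the gene: P4ha2 (chr11:54100674-54100923, plus strand) and Cyr61 (chr3:145649986-145650235, minus strand), which rose, and Serpinh1 (chr7:99353240-99353489, minus strand) and Col1a2 (chr6:4505368-4505617, plus strand), which fell.
P4ha2: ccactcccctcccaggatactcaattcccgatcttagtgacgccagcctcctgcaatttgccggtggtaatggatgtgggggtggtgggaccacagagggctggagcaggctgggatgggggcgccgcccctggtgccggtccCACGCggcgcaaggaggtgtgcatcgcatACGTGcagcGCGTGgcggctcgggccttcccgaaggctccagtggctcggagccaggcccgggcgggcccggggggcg
Cyr61: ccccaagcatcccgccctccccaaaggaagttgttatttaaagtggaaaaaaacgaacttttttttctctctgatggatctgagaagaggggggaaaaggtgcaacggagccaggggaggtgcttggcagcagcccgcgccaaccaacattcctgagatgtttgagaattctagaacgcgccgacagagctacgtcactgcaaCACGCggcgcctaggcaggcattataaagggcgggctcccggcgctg
Serpinh1: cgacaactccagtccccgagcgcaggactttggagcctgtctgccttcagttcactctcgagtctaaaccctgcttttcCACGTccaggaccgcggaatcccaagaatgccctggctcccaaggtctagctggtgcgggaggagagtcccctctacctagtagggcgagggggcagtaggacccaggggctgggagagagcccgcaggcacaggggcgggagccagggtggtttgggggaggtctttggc
Col1a2: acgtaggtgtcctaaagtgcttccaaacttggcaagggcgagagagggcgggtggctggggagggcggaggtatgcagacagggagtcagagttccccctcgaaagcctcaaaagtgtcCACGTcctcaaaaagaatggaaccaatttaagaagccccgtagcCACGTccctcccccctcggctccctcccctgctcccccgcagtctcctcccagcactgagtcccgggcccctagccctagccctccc

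P4ha2 has 3 matches, beginning at bases -107, -78 and -69 from the start, and Cyr61 has 1 at -47. Serpinh1 has 1 match at -171 and Col1a2 has 2, at -131 and -87, so the letters were found before genes of either direction. A RefSeq window of 300 bases, from 250 before to 50 after the start, was found for 60 of the 84 members. Some members have more than 1 window. Counted by window, 6 of 10 of members that rose and 16 of 36 of members that fell (44.4%) had a match. Over all 32851 windows of that length, 43.8% had one, 19.6% the first motif and 32.4% the second. A short match is a description of the letters and not a binding site.

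Of the 10 basement membrane genes that the table lists, 6 fell and 1 rose, with a median of -0.73. The shares were 60% lower and 10% higher, where all genes tested gave 38.7% and 35.7%. Col15a1, a collagen of the outer basement membrane of vessels and tubules (chr4:47208161-47313167, GRCm38), measured 1557, 1939 and 1451 normalised reads with IRI and 641, 653 and 699.7 with MK-8617. Col15a1 fell by 1.30 on the log2 scale (SE 0.12, limma adjusted p = 0.000232), without overlap, and its IRI mean was 2.48 times its MK-8617 mean. Lama3, the alpha chain of laminin-332, measured 347, 277 and 364 with IRI and 104, 136 and 111 with MK-8617. Lama3 fell by 1.49 on the log2 scale (SE 0.18, limma adjusted p = 0.000695), and no library of one group reached the range of the other. Lamb3, the beta chain of laminin-332, is outside the naming rule and was looked up because Lama3 had fallen. Lamb3 fell by 1.16 (SE 0.22, limma adjusted p = 0.00552). Col18a1, the proteoglycan collagen that yields endostatin, was the most abundant basement membrane member per length, at 84.4 ± 8.39 FPKM with IRI and 50.8 ± 1.95 with MK-8617 (mean ± SD, n = 3). Its normalised reads were 10360.0, 9561 and 11694 and 6392, 6213 and 6645. Col18a1 fell by 0.71 on the log2 scale (SE 0.11, limma adjusted p = 0.00197), with no overlap. Col4a5, the type IV chain altered in X-linked Alport syndrome, fell by 0.75 (SE 0.12, limma adjusted p = 0.00254), at 796 to 983 reads with IRI and 482 to 574 with MK-8617.

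Col4a3, which joins Col4a5 in the type IV collagen of the glomerular basement membrane, moved the other way. Its values were 1867, 1689.6 and 1257 with IRI and 2203, 2425 and 2306 with MK-8617, so the groups did not overlap. Col4a3 rose by 0.54 on the log2 scale (SE 0.14, limma adjusted p = 0.022). The call was lost when any 1 MK-8617 library was left out (limma adjusted p 0.0566 to 0.0811) and with the length trend removed (log2 change 0.21, limma adjusted p = 0.574). Podocytes make this collagen in the glomerulus. Of 6 podocyte markers 3 were in the table. All 3 rose, among them Nphs1 by 0.42 and Wt1 by 0.91 on the log2 scale. Podocyte markers outside the table had no p below 0.05 in the authors' test or were not tested there, and could not be read. Of all genes tested, 35.7% rose. Together the 3 held 68.4, 60.8 and 62.5 CPM in the IRI libraries and 121, 109.7 and 107 CPM with MK-8617, and their part in the Col4a3 result was not tested. Lama5 and Lamb1, chains of laminins found under kidney epithelia, stood at log2 changes of 0.35 (SE 0.15, limma adjusted p = 0.131) and of 0.26 (SE 0.11, limma adjusted p = 0.13). Col4a6 stood at a log2 change of -0.93 (SE 0.34, limma adjusted p = 0.0727).

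Other collagens comprised the beaded type VI chains, which surround cells, and several minor types. Of 8 tested, 4 fell (50%) and 2 rose (25%), with a median of -0.68, against 38.7% and 35.7% of all genes tested. Col6a3 measured 1217, 1649.5 and 1307 normalised reads with IRI and 463, 598 and 518 with MK-8617. Col6a3 fell by 1.40 on the log2 scale (SE 0.14, limma adjusted p = 0.000343), and the groups did not overlap. Col6a2 fell by 1.02 (SE 0.15, limma adjusted p = 0.00171), and Col6a1, outside the naming rule, fell by 0.53 (SE 0.17, limma adjusted p = 0.0438) with overlapping libraries, and that call was kept in only 1 of the 6 fits that leave out 1 library. Col12a1, which coats type I fibres, measured 464, 417 and 642 with IRI and 738, 732 and 739 with MK-8617. Col12a1 rose by 0.56 on the log2 scale (SE 0.16, limma adjusted p = 0.0273). Col13a1, a transmembrane collagen, measured 84.2, 91.1 and 259 with IRI and 359, 253 and 289 with MK-8617, with IRI replicate 3 far above the other IRI libraries and inside the MK-8617 range. Col13a1 rose by 1.23 on the log2 scale (SE 0.39, limma adjusted p = 0.0427). Both rises were lost when any 1 library other than IRI replicate 3 was left out, with a limma adjusted p of 0.0696 to 0.0874 for Col12a1 and 0.0823 to 0.158 for Col13a1. Neither was called on FPKM or with the length trend removed, where Col12a1 stood at log2 change 0.15, limma adjusted p = 1 and Col13a1 at log2 change 1.08, limma adjusted p = 0.0842. Without MK-8617 replicate 1, or without MK-8617 replicate 3, 2 of the group fell in place of 4.

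Listed elastic-fibre and microfibril genes showed falls and no rise. Of 9, 4 fell and 5 did not pass the threshold, with a median of -0.80. The share that fell was 44.4%, against 38.7% of all genes tested, of which 35.7% rose. Ltbp2, a microfibril protein of the latent TGF-beta binding family, measured 121, 186 and 91.1 normalised reads with IRI and 36.9, 19.2 and 18.1 with MK-8617. Ltbp2 fell by 2.39 on the log2 scale (SE 0.37, limma adjusted p = 0.00204), and its highest MK-8617 library was below its lowest IRI library. Fbn1, fibrillin-1, the main microfibril protein, measured 827, 1444 and 1078 with IRI and 301, 331 and 483 with MK-8617. Fbn1 fell by 1.58 on the log2 scale (SE 0.23, limma adjusted p = 0.00152), although 20.1% of its exonic bases are shared with a gene on the other strand. The fibulins link microfibrils to elastin and to basement membranes. Fbln2 fell by 1.16 (SE 0.15, limma adjusted p = 0.00106), at 328 to 373 reads with IRI and 143 to 183 with MK-8617. Fbln5 fell by 0.80 (SE 0.17, limma adjusted p = 0.00864), at 1614 to 2538 reads with IRI and 1038 to 1311 with MK-8617. The 5 others, all with a log2 change below 0, were Emilin1, Emilin2, Mfap2, Ltbp1 and Ltbp3, with values from -1.28 for Emilin2 to -0.30 for Ltbp3. With the length trend removed, 8 of the 9 passed as lower, and 7 with length and GC trends removed.

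Matricellular and adhesive proteins, which regulate cells more than they bear load, were divided. Of the 7 listed, 4 rose and 3 fell. The shares were 57.1% higher and 42.9% lower, where all genes tested gave 35.7% and 38.7%. Thbs1, thrombospondin-1, which can activate latent TGF-beta (chr2:118111876-118127133, GRCm38), measured 4003, 3428 and 4054 normalised reads with IRI and 8582, 7439.9 and 10347 with MK-8617. Thbs1 rose by 1.19 on the log2 scale (SE 0.14, limma adjusted p = 0.000578), and its MK-8617 mean was 2.30 times its IRI mean with no overlap. Cyr61, also called Ccn1, a secreted protein that binds integrins (chr3:145646976-145649981), measured 4039, 2758 and 2626 with IRI and 5887, 6603 and 11176 with MK-8617. Cyr61 rose by 1.30 on the log2 scale (SE 0.25, limma adjusted p = 0.00518), and MK-8617 replicate 3 was the highest library for it, as it was for Thbs1. Thbs2 and Sparcl1, outside the naming rule, rose by a log2 change of 0.54 (SE 0.17, limma adjusted p = 0.044) and of 0.71 (SE 0.21, limma adjusted p = 0.0356). The count of 4 rises was 2 when any 1 library other than IRI replicate 3 was left out.

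Sparc, osteonectin, a collagen-binding protein, was the most abundant member per length with IRI alone. Its normalised reads were 13924, 16774 and 15622 with IRI and 6850.0, 6846 and 8451 with MK-8617. Sparc fell by 1.07 on the log2 scale (SE 0.13, limma adjusted p = 0.000628), and the lowest IRI library was above the highest with MK-8617. Fn1, fibronectin, the provisional matrix of wounds, measured 1370.5, 2241 and 1634 with IRI and 678, 679.9 and 1062 with MK-8617. Fn1 fell by 1.12 on the log2 scale (SE 0.22, limma adjusted p = 0.0056), with no overlap. Postn, periostin, a matricellular protein of injured and fibrotic kidney, measured 198, 280.5 and 352 with IRI and 21.5, 104 and 60.6 with MK-8617. Postn fell by 2.36 on the log2 scale (SE 0.49, limma adjusted p = 0.0078), without overlap, and MK-8617 replicate 1 was the lowest library. The group's summed level per length was 379, 383 and 372 FPKM with IRI and 367, 374 and 565 FPKM with MK-8617, where only MK-8617 replicate 3 lay above the IRI libraries.

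Proteoglycans and hyaluronan synthases were also divided, with 3 of the 8 listed higher, 3 lower and a median of -0.12. That is 37.5% each way, near the 35.7% higher and 38.7% lower of all genes tested. Dcn, decorin, a small leucine-rich proteoglycan that binds collagen fibrils and TGF-beta (chr10:97479609-97518143, GRCm38), measured 275, 428 and 453 normalised reads with IRI and 677, 618 and 625 with MK-8617. Dcn rose by 0.76 on the log2 scale (SE 0.18, limma adjusted p = 0.0145), and the 3 MK-8617 libraries lay close together above all IRI libraries. Bgn, biglycan, its closest relative, measured 5314, 7384 and 7226 with IRI and 3855, 3816 and 4445 with MK-8617. Bgn fell by 0.71 on the log2 scale (SE 0.14, limma adjusted p = 0.007), so the 2 related proteoglycans moved in opposite directions, each without overlap. Sdc4, a syndecan of the cell surface, measured 6053, 5381 and 5779 with IRI and 8910.4, 7604 and 9867 with MK-8617. Sdc4 rose by 0.61 on the log2 scale (SE 0.12, limma adjusted p = 0.00623). The syndecans Sdc1 and Sdc3 moved the other way from Sdc4: Sdc1, the main epithelial syndecan, fell by 0.82 (SE 0.18, limma adjusted p = 0.00933). Sdc3 fell by 1.09 (SE 0.19, limma adjusted p = 0.00329). Has1, a hyaluronan synthase outside the naming rule, rose by 1.23 (SE 0.35, limma adjusted p = 0.0304). It had only 17.3 to 25.5 reads with IRI and 36.9 to 71.2 with MK-8617. The Has1 call was kept in only 2 of the 6 fits that leave out 1 library. The Dcn call was lost without MK-8617 replicate 1 or 3 (limma adjusted p 0.0556 to 0.0625) and with the length trend removed (log2 change 0.53, limma adjusted p = 0.0809). Only 1 of the group rose without MK-8617 replicate 3.

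**Figure D3:**
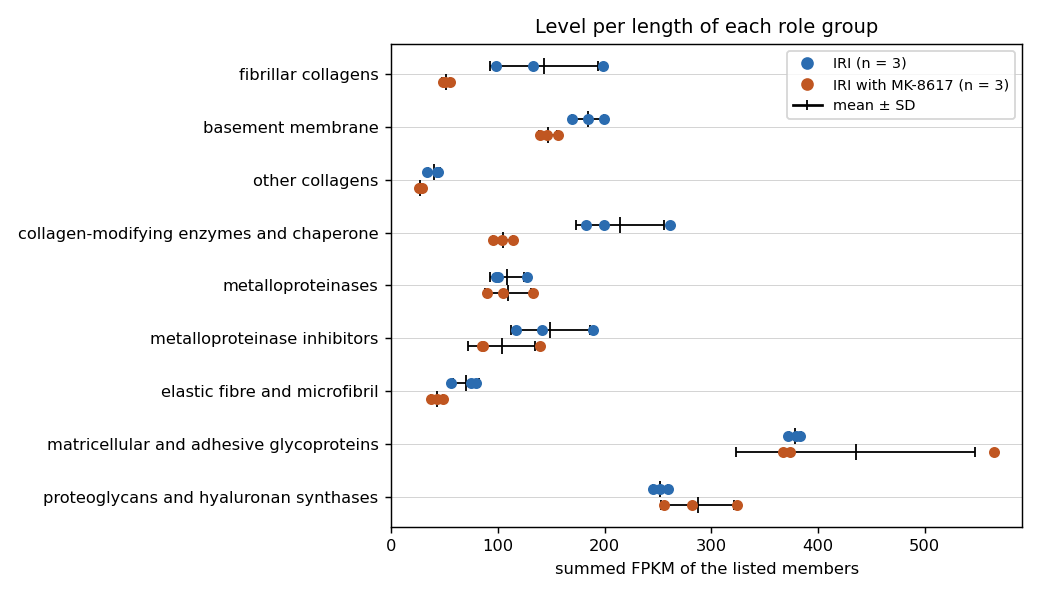
Summed FPKM of the listed members of each role group in each library. Points are libraries (blue IRI, orange IRI with MK-8617, 3 each), and the bars give the mean and SD. Fibrillar collagens went from 144 ± 50.8 to 51.3 ± 3.45 FPKM and the modifying enzymes from 214 ± 41.2 to 105 ± 9.44, while the metalloproteinases stood at 108 ± 16.0 and 109 ± 21.7.

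Metalloproteinases, taken by the names Mmp, Adam and Adamts and not by enzyme activity, formed the largest group, with 24 tested members. Of these, 10 fell, 4 rose and 10 did not pass the threshold (median -0.64). A name does not show that a member is an active proteinase. Adam11, Adam22 and Adamtsl1, taken in by name, were among those that did not pass. The share that fell, 41.7%, was near the 38.7% of all genes tested, while 16.7% rose against 35.7%. Adam8, a membrane proteinase of leukocytes and activated cells, measured 608, 666 and 858 normalised reads with IRI and 55.3, 116 and 104 with MK-8617. Adam8 fell by 2.99 on the log2 scale (SE 0.27, limma adjusted p = 0.000198), and its IRI mean was 7.73 times its MK-8617 mean. Adam12, a proteinase of mesenchymal and regenerating cells, measured 846, 886 and 791 with IRI and 98.4, 197 and 187 with MK-8617. Adam12 fell by 2.44 on the log2 scale (SE 0.24, limma adjusted p = 0.000291), and for both genes MK-8617 replicate 1 was the lowest library. Mmp15 and Mmp17 are membrane-type matrix metalloproteinases. Mmp15 fell by 1.67 (SE 0.28, limma adjusted p = 0.00269), at 85.6 to 131 reads with IRI and 29.7 to 42.7 with MK-8617. Mmp17 fell by 1.41 (SE 0.23, limma adjusted p = 0.00275), at 118 to 136 reads with IRI and 40.0 to 58.5 with MK-8617. Mmp2 and Mmp14, outside the naming rule, are the gelatinase of fibroblasts and the membrane-type enzyme that activates it. Mmp2 fell by 1.49 (SE 0.25, limma adjusted p = 0.00282), at 104 to 127 reads with IRI and 33.1 to 50 with MK-8617. Mmp14 stood at a log2 change of -0.41 (SE 0.16, limma adjusted p = 0.0861), with overlapping libraries.

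The 4 metalloproteinases that rose were Adamts4, Adamts6, Adamts16 and Mmp7. Adamts4, an aggrecanase that cuts proteoglycan cores, measured 155, 177 and 258 with IRI and 478, 311 and 827 with MK-8617. Adamts4 rose by 1.37 on the log2 scale (SE 0.33, limma adjusted p = 0.0147), with the MK-8617 libraries spread more widely than those with IRI alone. Adamts16 rose by 1.43 (SE 0.32, limma adjusted p = 0.0107), at 26.8 to 54.7 reads with IRI and 92.5 to 135 with MK-8617. Adamts6 rose by 0.56 (SE 0.17, limma adjusted p = 0.0372), at 149 to 198 reads with IRI and 244 to 289 with MK-8617. Mmp7, matrilysin, a small enzyme of injured epithelium, measured 21.8, 31.9 and 13.4 with IRI and 33.8, 85.4 and 73.4 with MK-8617, all of them low values. Mmp7 rose by 1.46 on the log2 scale (SE 0.44, limma adjusted p = 0.0381), and 11.5% of its exonic bases are shared with an antisense gene. Leaving out single libraries ended each of these calls: Adamts16 without MK-8617 replicate 1 (limma adjusted p 0.0524), Adamts4 without that library or IRI replicate 2 (0.0511 to 0.0560), Adamts6 without any 1 library other than IRI replicate 3 (0.0543 to 0.132), and Mmp7 without IRI replicate 1 or 3 or MK-8617 replicate 2 or 3 (0.0750 to 0.144). Adamts6 was also not called on FPKM or with the length trend removed (log2 change 0.27, limma adjusted p = 0.485). The count of metalloproteinases that rose was 2 without either of IRI replicates 1 and 2 or MK-8617 replicates 2 and 3, and 1 without MK-8617 replicate 1. Adamts1, a more abundant aggrecanase at 44.2 ± 13.1 FPKM with IRI and 65.3 ± 16.8 FPKM with MK-8617, stood at a log2 change of 0.59 (SE 0.24, limma adjusted p = 0.101). Macrophages also express Adam8, and of 10 macrophage markers 8 were in the table and 6 fell (75%, against 38.7% of all genes tested). Together these 8 held 226, 308 and 152 CPM with IRI and 81.4, 83.9 and 63.6 CPM with MK-8617, none was at 0, and their part in the Adam8 result was not tested.

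The 2 listed metalloproteinase inhibitors moved in opposite directions. Timp1, the inducible inhibitor that is secreted after kidney injury, measured 1146, 2413 and 1753 normalised reads with IRI and 505, 596 and 833 with MK-8617. Timp1 fell by 1.42 on the log2 scale (SE 0.27, limma adjusted p = 0.00466), without overlap. Timp3, the inhibitor that stays bound to the matrix, measured 6392, 5308 and 4429.7 with IRI and 7912, 7168 and 12752 with MK-8617. Timp3 rose by 0.76 on the log2 scale (SE 0.22, limma adjusted p = 0.0315), and MK-8617 replicate 3 stood well above the other libraries. The Timp3 call was lost without IRI replicate 2 or 3 or MK-8617 replicate 1 or 3 (limma adjusted p 0.0570 to 0.0919), and 21.3% of its exonic bases are shared with Syn3 on the other strand. With the length trend removed neither inhibitor was called, Timp1 with log2 change -0.84, limma adjusted p = 0.0591 and Timp3 with log2 change 0.46, limma adjusted p = 0.179.

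The order of levels per length differed between the groups of libraries. With IRI alone the most abundant members by mean FPKM were Sparc (229 ± 20.8, SD, n = 3), Serpinh1 (183 ± 39.4), Sdc4 (127 ± 7.70), Timp1 (112 ± 40.0) and Cyr61 (87.6 ± 22.1). With MK-8617 they were Cyr61 (217 ± 80.1), Sdc4 (192 ± 25.6), Sparc (108 ± 14.1), Thbs1 (80.5 ± 13.8) and Adamts1 (65.3 ± 16.8). In each group some neighbours in that order lie within their spread, such as Sdc4 and Timp1 with IRI and Cyr61 and Sdc4 with MK-8617. Col1a1 stood at rank 10 by mean FPKM with IRI (41.7 ± 15.4) and at rank 24 with MK-8617 (8.78 ± 0.561). Over all 84 members the summed level was 1414, 1682 and 1527 FPKM in the IRI libraries and 1192, 1174 and 1560.0 FPKM with MK-8617, and these ranges overlapped.

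Genes of the same pathways outside the symbol rule were read from lists set with the groups above. Of 64 such genes 28 were in the table, and 12 rose (42.9%) and 11 fell (39.3%). These shares are near those of all genes tested, 35.7% and 38.7%. In the collagen folding, processing and crosslinking list, 10 of 17 were in the table, of which 6 fell (60%) and 2 rose (20%). Pcolce2, an enhancer of procollagen trimming, fell by 1.59 (SE 0.23, limma adjusted p = 0.00155). P3h3, a prolyl 3-hydroxylase family member, fell by 0.98 (SE 0.13, limma adjusted p = 0.00118), and Tgm2, the transglutaminase that crosslinks matrix proteins, fell by 0.82 (SE 0.12, limma adjusted p = 0.00159). P3h2, a relative of P3h3, was 1 of the 2 rises, with a log2 change of 0.78 (SE 0.15, limma adjusted p = 0.00553), and Furin the other. In the TGF-beta list, 7 of 11 were in the table, of which 5 rose (71.4%) and 1 fell (14.3%). Smad3, which carries the signal, rose by 0.79 (SE 0.11, limma adjusted p = 0.00115), Smad7, which inhibits it, rose by 1.04 (SE 0.14, limma adjusted p = 0.00113), and the receptor Tgfbr1 rose by 0.80 (SE 0.11, limma adjusted p = 0.00143). The 1 fall was the partner receptor Tgfbr2, which fell by 0.47 (SE 0.13, limma adjusted p = 0.0277).

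Matrix receptors were in the table for 5 of 17, and 2 rose and 2 fell (40% each). Over all genes tested, 35.7% rose and 38.7% fell. Cd44, the hyaluronan receptor, measured 547, 598 and 677 normalised reads with IRI and 135, 201 and 254 with MK-8617. Cd44 fell by 1.66 on the log2 scale (SE 0.22, limma adjusted p = 0.000982), with no overlap. Itga1, the alpha chain of a collagen receptor, fell by 0.74 (SE 0.12, limma adjusted p = 0.00233), whereas Itgav and Itgb3, which pair as a receptor for several matricellular proteins, changed by 0.50 (SE 0.14, limma adjusted p = 0.024) and 0.68 (SE 0.22, limma adjusted p = 0.0472). Among other turnover genes, 4 of 14 were in the table, and 2 rose and 2 fell (50% each). Mrc2, the receptor that takes up cut collagen, fell by 1.43 (SE 0.21, limma adjusted p = 0.00156), and Ctss, a cathepsin of macrophages, fell by 0.96 (SE 0.13, limma adjusted p = 0.00111). Ctsl, a lysosomal cathepsin, rose by 0.57 (SE 0.11, limma adjusted p = 0.00578). Of 5 YAP pathway genes 2 were in the table, and Yap1 rose by 0.34 (SE 0.10, limma adjusted p = 0.0265). The count of related genes that rose was 7 without MK-8617 replicate 3.

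Markers of the other cells in a kidney were as follows. Those outside the table had no p below 0.05 in the authors' test or were not tested there, and could not be read. Over all genes tested, 35.7% rose and 38.7% fell. Tubule injury markers were in the table for 5 of 6, and 3 fell and 1, Sox9, rose, with sums of 3579.8, 3548 and 4239 CPM with IRI and 1903, 1870.5 and 1714 CPM with MK-8617. Proximal tubule markers were in the table for 3 of 10, and 1, the organic anion transporter Slc22a8, rose. Their sums were 428 to 1372 CPM with IRI, lowest in IRI replicate 3, and 2176 to 2405 CPM with MK-8617. Distal nephron markers were listed for 3 of 5 and 1, Slc12a1, fell, with sums of 1437 to 2396 and 1891 to 2997 CPM. Endothelial markers were listed for 2 of 12 and neither was called, with sums of 139 to 163 and 139.7 to 182 CPM. No listed marker was at 0 in any library, and the part of these cells in the matrix results was not tested.

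Fold changes in this table also moved with the length of the gene, and matrix genes are long. The median exonic length was 6668.5 bases for the members tested and 3876 bases for all genes tested. In 5 bins of exonic length with equal numbers of genes, from short to long, the median log2 change of all genes was -0.73, -0.45, -0.32, 0.36 and 0.39. The members had medians of -0.65 (4 genes), -0.07 (8), -0.82 (9), -0.80 (25) and -0.81 (36), of which the first 3 rest on fewer than 20 genes. In the 2 longest bins, where most members lie, the members' medians were below 0 and those of all genes above 0. Removing the length trend moved the median of all genes from -0.31 to -0.12 and that of the members from -0.76 to -0.97.

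**Figure D4:**
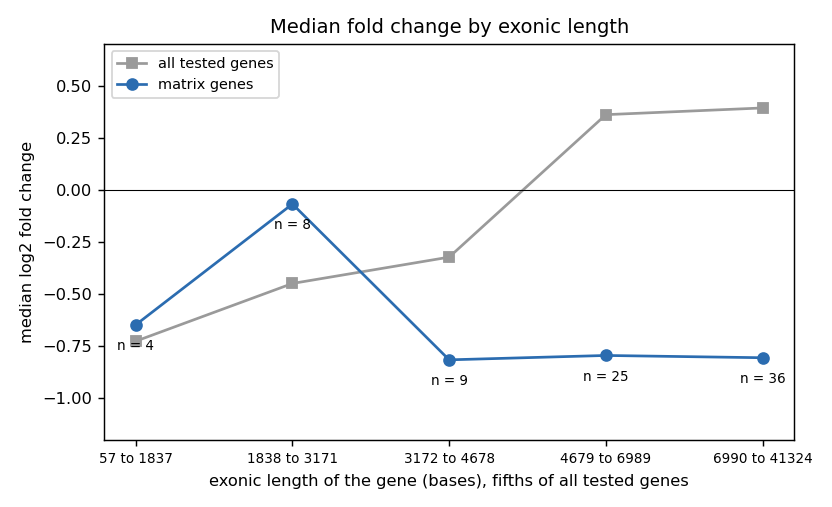
Median log2 change, IRI with MK-8617 over IRI, in 5 bins of exonic length with equal numbers of genes, for all tested genes (grey squares) and the matrix genes (blue circles, with their number). In the 2 longest bins the lines lie on opposite sides of 0, at 0.39 for all genes and -0.81 for the matrix genes in the longest.

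The naming rule took 42 genes by their adjusted p or call, apart from those given with the set, so that all 42 are called says nothing of the members. Of these, 32 kept their call in each alternative setting that tested them, 19 settings for most and 18 for Mmp15, Mmp17 and Ltbp2, which the filter at a mean of 5 CPM removed. The 10 that lost it at least once were Col4a3, Col12a1, Col13a1, Adamts4, Adamts6, Adamts16, Mmp7, Timp1, Timp3 and Dcn, of which Timp1 was the single fall. No named gene changed direction in any of these settings. Over all members, 36 of the 41 falls and 6 of the 18 rises were called in each of the 6 fits that leave out 1 library. This was not counted over all genes, where rises also dropped more than falls in some fits. Without MK-8617 replicate 1, all-gene rises went from 2482 to 1510 and falls from 2691 to 1954.

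**Figure D5:**
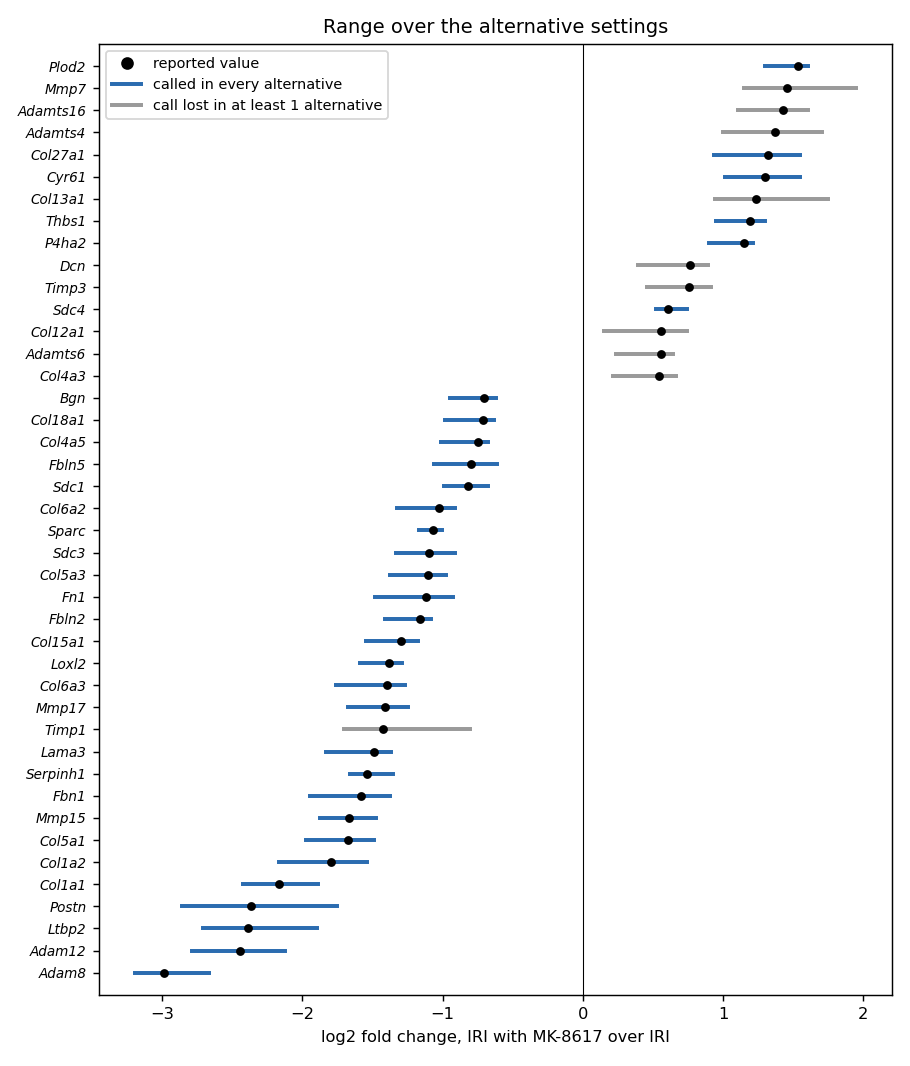
Log2 change of each of the 42 named genes, IRI with MK-8617 over IRI. Black points are the reported values and the lines span the alternative settings that tested the gene (19, or 18 for Mmp7, Mmp15, Mmp17, Adamts16 and Ltbp2), blue where the call held in each (32 genes) and grey where it was lost in at least 1 (10 genes). No line crosses 0.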

How the data were processed

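RNA was sequenced from 6 mouse kidney samples, 3 titled IRI and 3 titled IRI with MK8617. The design text speaks of tumors and the labels of kidney, and the labels were followed. Per the labels' protocols, TRIzol was used for total RNA and a NEBNext Ultra RNA kit for the libraries. Alignment and counting tools named in the submitters' processing notes are HISAT2 2.0.5 and featureCounts 1.5.0-p3, beside fastp, CASAVA 1.8 and, for the comparison, DESeq2 1.20.0. Those notes name GRCh38 (hg38), but the identifiers are mouse ones. Whether counting used strand is not given in the sources used here, so reads of genes that overlap on opposite strands cannot be told apart.

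Each deposited signal value is a gene's read number after the authors' division by a size factor of its library. Whole reads were recovered from them for 100% of values within 0.001, and equalled the 1 deposited count column, that of IRI replicate 3, in 7340 of 7340 genes. One read was worth 0.911 to 1.07 normalised reads. The authors' FPKM were deposited too, as were the authors' log2 fold changes and p-values, all listed p-values being below 0.05 (largest 0.0499). Library totals were derived from recovered reads, FPKM and exonic lengths of GENCODE M21 (GRCm38), whose coordinates are those of whole genes. Of the table's columns 13 without a name or values were not used, and 7338 of 7340 identifiers matched M21.

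In R 4.3.3, limma 3.58.1 with trend and robust settings was fitted to log2(value + 1), which understates the change of low genes, for the 6961 genes that passed filterByExpr of edgeR 4.0.16. Benjamini-Hochberg adjustment ran over the 18811 genes that the deposited adjusted p-values imply. The fit was also run on simulated data, which lacked this table's selection by p-value and so do not test the fit under it. DESeq2 1.42.0, edgeR and limma-voom on recovered reads were among the 19 alternatives. Within each group the libraries differed beyond counting noise (chi-square per degree of freedom 17.3 to 47.8). The members and all lists were chosen with earlier results of these data known. The naming rule took 8 genes given with the set, up to 4 members per role group with the smallest adjusted p, called members that moved against the majority of their group, and up to 3 called genes per related list. Cell markers came from fixed lists. A few genes that the lists or the rule take are not reported here. Protein sequences of the collagens were not analysed here.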

Additional observations from a re-analysis of the deposited data

How the results depend on the processing

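Under the 13 alternatives that keep all libraries, the counts of members, of all genes and of related genes stayed within 1.5 times the reported ones, with 1 exception. With the trend of fold change on transcript length removed, 10 members rose in place of 18, and 54 fell in place of 41. With length and GC trends removed 12 rose and 53 fell. Under edgeR on recovered reads the order of the all-gene counts was reversed. There 2875 of all genes rose and 2333 fell, against the reported 2482 and 2691, while 17 members rose and 38 fell. The cause of the length trend was not tested. Leaving out 1 library at a time gave 8 to 18 members that rose and 36 to 43 that fell. Over all listed genes it gave 1510 to 2479 that rose, against 2482 reported, with 1510 without MK-8617 replicate 1 and 1650 without MK-8617 replicate 3. Related genes that rose came to 7 to 13, against 12. These fits test fewer samples. Replicate numbers are shared by the groups, but whether they pair the samples cannot be told from 3 libraries per group. The correlations of deviations of same-numbered libraries were -0.02, 0.16 and 0.13 over 6108 genes. Those of libraries with different numbers ran from -0.18 to 0.05. With the replicate block, 19 members rose and 46 fell, and over all genes 2510 rose and 2747 fell. Each of the 42 named genes was called with the block. Filters and depth limit the members with few reads, such as Mmp7, Has1 and Col24a1.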
